A study of Mus musculus with 11 samples.

Results

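The genes described here encode the LXR sterol receptors, the genes those receptors switch on, and the enzymes and regulators of cholesterol synthesis. They were taken from a list of 29 genes by name, and the probeset naming that gene alone with the highest mean over all 11 arrays stood for each. That left 25 of the 29 listed genes among 22180 tested. The mean decided between probesets for Scap only, so the choice did not draw on the difference between groups. Scd2 and Idi1 share their probeset with another named gene and, like Nr1h2 and Acat2, were not analysed here.

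The arrays hold RNA of dendritic cells sorted from mouse spleen as CD11c- and MHC class II-positive, on the C57BL/6 background in every sample. There were 5 arrays from mice given Eµ-Myc lymphoma, in which a Myc transgene drives B cells to malignancy, and 6 arrays from naive mice. Per the labels, lymphoma cells averaged 10 to 36% of lymphocytes in the tumour-bearing spleens and sorted cells were over 95% pure. The labels give no age, sex or time after transfer, and do not say whether an array stands for 1 mouse or a pool. The p-values therefore measure the spread between these samples, which may be technical. Arrays carry the numbers in their titles, 1, 2, 3, 4 and 6 for exposed and 1 to 6 for naive. Values are log2 expression, so a difference of 1 is a 2-fold change.

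Cells sense surplus cholesterol through LXRα (Nr1h3) and LXRβ (Nr1h2), nuclear receptors that bind oxysterols and act as dimers with an RXR partner. Their targets export cholesterol, lower lipoprotein uptake and remodel membrane lipids. A shortage of sterols is sensed separately: SCAP escorts the membrane-bound factor SREBP2 to the Golgi for cleavage, and the freed factor switches on the synthesis enzymes, while INSIG proteins hold SCAP back. In myeloid cells of the spleen, LXRα is best known from the macrophages of the red pulp and marginal zone.

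A receptor gene was the single call among the measured genes. Nr1h3 was 2.13-fold higher in exposed cells, and of the other 24 measured genes 0 passed the test (limma with Benjamini-Hochberg adjustment across all 22180 genes, threshold 0.05), 2 of them with an unadjusted p under 0.05. The 7 LXR targets had a median difference of 0.12, the 12 synthesis enzymes 0.05, and SREBP2 with its regulators and carrier -0.02, against 0.01 over all genes. In all, 1 of the 25 genes was called, against 1.42% of all genes, with 0.879% called higher and 0.546% called lower in exposed cells. With a common 75th percentile on each array, 168 of 391 called genes were higher in exposed cells, in place of 195 of 316. Groups without overlap were seen for 1 of the 25, against 2.29% of all genes. An unadjusted p under 0.05 (limma) was seen for 3 of the 25, against 2710 of all 22180 genes. Unadjusted counts given for other lists below stand beside that same share. A count of 1 in 25 is given as a description only.

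**Figure D1:**
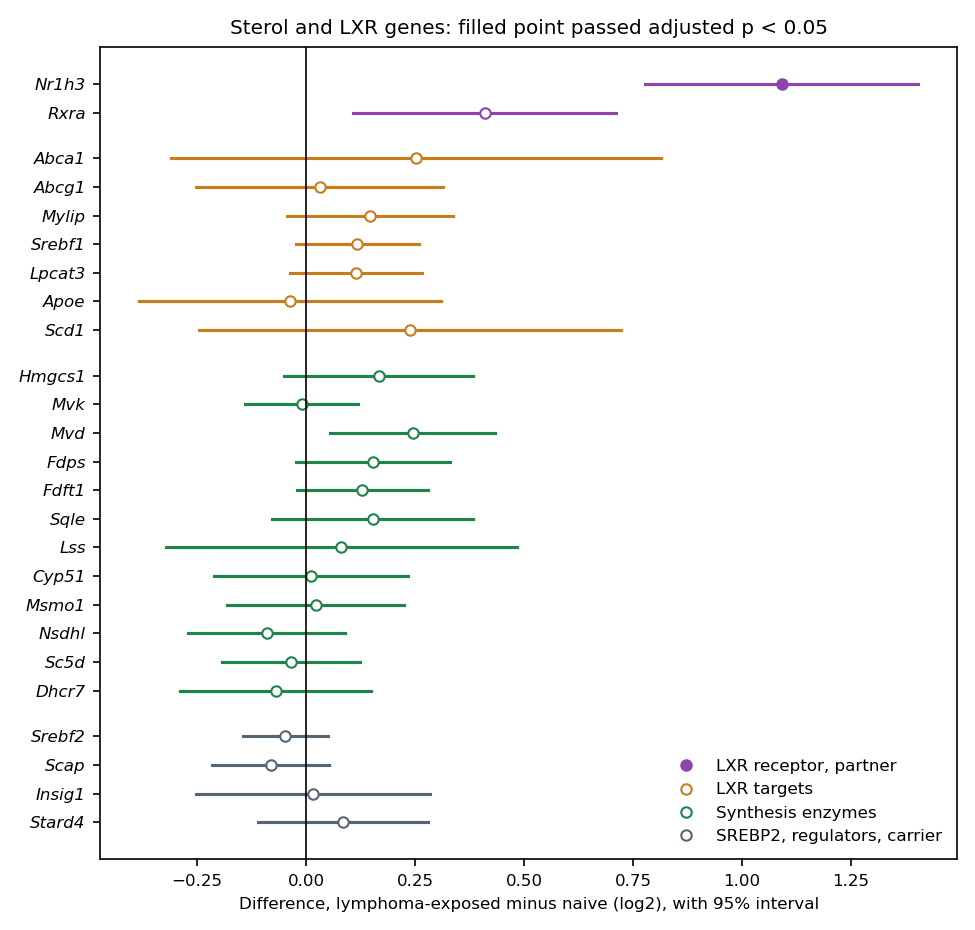
Difference between 5 lymphoma-exposed and 6 naive arrays for each of the 25 genes (log2, x axis), with limma's 95% interval, grouped by role. The point for Nr1h3, at 1.09, is the only filled one, meaning that it passed the adjusted test. Intervals of the targets Abca1 and Scd1 are the widest.

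Nr1h3 was measured at 8.89, 8.88, 8.47, 8.29 and 8.17 on the exposed arrays, against a lowest of 7.14, a median of 7.43 and a highest of 7.72 on the naive arrays (probeset 17388177). Each of the 5 exposed values exceeded the naive maximum. The means were 8.54 ± 0.33 in exposed (SD, n = 5) and 7.45 ± 0.23 in naive cells (SD, n = 6), a difference of 1.09 ± 0.15 (SE; limma adjusted p = 0.00409; 95% limits 0.78 to 1.40). Among genes called higher in exposed cells, 10 had a larger difference. With any 1 array left out the difference lay between 1.00 and 1.18, and it passed each time.

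Arrays were also split by number, 1 to 3 against 4 to 6. Earlier results of these data had shown these number sets apart in both groups, and the labels do not explain it. In a limma model with group, 731 genes differed between the number sets. As the split was chosen from the same data, that count is a description and not a test of the split. Nr1h3 was higher in exposed cells by 1.32 in the first set and by 0.76 in the second, and by 1.07 when number set was a block (adjusted p = 0.00291). Neither number set alone made it pass, with adjusted p = 0.0505 and 0.197 in limma fits of 6 and 5 arrays. The difference between the sets, tested as a limma interaction, did not pass for any of the 25 genes or of all 22180 genes. Without adjustment 943 genes had p under 0.05, among them Nr1h3, Abcg1 and Mylip.

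Markers of red pulp macrophages, which express Nr1h3, moved with the groups on some arrays. The mean of 10 such markers was 10.69, 9.75, 8.84, 8.70 and 8.68 on the exposed arrays, against 8.13 to 9.26 on naive arrays. Exposed arrays 1 and 2 lay above every naive array, while the other 3 lay inside the naive range. Nr1h3 was above every naive array on all 5 exposed arrays, those 3 included. Of the 10 markers 9 were higher in exposed cells and 0 passed (limma). The other, Adgre1, differed by -0.18. An unadjusted p under 0.05 was seen for 5, namely Spic, Vcam1 and the complement genes C1qa, C1qb and C1qc. With the marker mean as a covariate, the Nr1h3 difference was 0.86 (limma adjusted p = 0.00122). Of 3 marginal zone and metallophilic macrophage markers, the scavenger receptor Marco rose by 1.54 (limma adjusted p = 0.00721). The lectin Cd209b fell by 0.82 (limma adjusted p = 0.0174) and Siglec1 differed by 0.48 (limma adjusted p = 0.751). All 5 exposed arrays lay above every naive array for Marco, 2 for Siglec1 and 0 for Cd209b. The part of macrophage RNA in the Nr1h3 difference was not tested beyond the covariate fit. In these sorted populations, more cells of a kind and more RNA per cell cannot be told apart.

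Other lists were read the same way. Dendritic cell markers, Itgax, Flt3, Zbtb46 and H2-Ab1, were high in both groups. Their means ran from 11.44 to 11.63 on exposed arrays and from 11.56 to 11.67 on naive arrays, with 3 exposed arrays below every naive array. All 4 differences were negative, 0 passed and 1 had an unadjusted p under 0.05 (limma). Markers of type 2 conventional dendritic cells averaged 9.14 to 9.34 on exposed and 9.37 to 9.56 on naive arrays, with 2 of 6, Cd209a and Clec4a4, past the test and lower in exposed cells. The 9 cell division markers averaged 9.04 to 9.52 on exposed and 8.75 to 9.02 on naive arrays. All 5 exposed arrays lay above the naive range. All 9 differences were positive, from 0.19 to 0.58, each with an unadjusted p under 0.05 (limma). After adjustment 4 of the 9 passed, against 0.879% of all genes called higher. With the mean of the 9 as a covariate Nr1h3 differed by 1.41 and did not pass (limma adjusted p = 0.116). In that fit 2 genes passed in all. Since the mean sets all 5 exposed arrays apart from every naive array, the fit cannot tell its part from that of group. The part of cell division in the Nr1h3 difference was therefore not tested. Markers of B cells, the cell of the lymphoma, averaged 7.09 to 7.44 on exposed and 7.08 to 7.38 on naive arrays, and 0 of 6 passed. Their differences went both ways, 4 positive and 2 negative. An unadjusted p under 0.05 (limma) was seen for 3, Cd79b (0.29), Pax5 (0.23) and Cr2 (-0.34). None of 5 type 1 dendritic cell, 5 plasmacytoid dendritic cell or 4 monocyte markers passed (limma; 1, 0 and 0 unadjusted), while 1 of 5 T and NK cell markers, Ncr1, rose by 0.46 (adjusted p = 0.0289). The 5 T and NK cell markers averaged 5.12 to 5.39 on exposed and 4.99 to 5.11 on naive arrays, so that all 5 exposed arrays lay above the naive range. Of these markers 4 had an unadjusted p under 0.05 and 4 were dim, and their part in the Nr1h3 difference was not tested. All 5 neutrophil markers lay below the level that 95% of olfactory receptor genes stayed under, which served as the mark for dim genes here. The transcription factor C/EBPβ, which the design text describes as lowered in dendritic cells exposed to lymphoma, was measured at 7.32 ± 0.42 in exposed (SD, n = 5) and 6.95 ± 0.18 in naive cells (SD, n = 6), a difference of 0.37 in the opposite direction that did not pass (Cebpb, adjusted p = 0.366 in limma).

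The promoter of Nr1h3 is shown because it is the 1 gene that was called, and that of Abca1 because exposed array 1 decided the value of this export gene. Each window runs from 250 bases before to 50 bases after a transcription start in the gene's own direction, from RefSeq on GRCm38.p6, and capitals mark GGGCGG, the Sp1 motif, which the Nr1h3 window lacks. Nr1h3 lies at chr2:91195067-91195366 on the minus strand and Abca1 at chr4:53159846-53160145 on the minus strand.
Nr1h3: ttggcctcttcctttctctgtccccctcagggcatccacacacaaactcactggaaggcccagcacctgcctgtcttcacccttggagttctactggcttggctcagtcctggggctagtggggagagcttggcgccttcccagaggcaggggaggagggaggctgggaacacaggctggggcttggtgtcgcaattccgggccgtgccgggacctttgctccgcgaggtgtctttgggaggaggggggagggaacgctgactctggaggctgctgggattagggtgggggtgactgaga
Abca1: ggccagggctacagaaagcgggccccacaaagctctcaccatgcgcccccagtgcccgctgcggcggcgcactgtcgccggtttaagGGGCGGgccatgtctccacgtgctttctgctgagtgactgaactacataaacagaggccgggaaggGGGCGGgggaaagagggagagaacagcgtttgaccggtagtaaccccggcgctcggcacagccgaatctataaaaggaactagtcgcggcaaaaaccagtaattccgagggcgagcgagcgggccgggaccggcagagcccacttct
Neither window holds CCAAT, the motif of NF-Y, or the LXR element, searched on both strands as AGGTCA, any 4 bases and AGGTCA again, with at most 2 mismatches. Reported LXR elements often depart further from these letters. Of the 22 listed genes with a window in the table, 1 held that element, Dhcr7, as TGACCTCACATCATCT on the minus strand at position -37 from 1 of its 3 starts, against 3.47% of all genes. A match is a description of letters and not of binding.

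Rxra, the RXR partner, was measured at 8.21, 7.70, 7.46, 7.47 and 7.30 on the exposed arrays, against a lowest of 6.94, a median of 7.25 and a highest of 7.38 on the naive arrays. Exposed values on 4 arrays exceeded the naive maximum. The difference of 0.41 ± 0.14 (SE) did not pass (limma adjusted p = 0.213; 95% limits 0.11 to 0.71), and it was 0.26 without exposed array 1. Arrays 1 to 3 alone gave 0.61, and arrays 4 to 6 alone gave 0.13. With the red pulp marker mean as a covariate the Rxra difference was 0.20 (limma adjusted p = 0.488). The related partner Rxrb differed by -0.07.

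None of the 7 measured LXR targets passed, at an unadjusted p under 0.05 or adjusted (limma), and 6 of their 7 differences were positive. Abca1, the pump that loads cholesterol onto lipid-poor apolipoprotein, was measured at 7.72, 6.44, 6.05, 5.99 and 6.01 on the exposed arrays, against a lowest of 5.93, a median of 6.24 and a highest of 6.51 on the naive arrays. Exposed array 1 stood alone, and the other 4 lay within the naive range. The difference of 0.25 ± 0.26 (SE; adjusted p = 0.782) was -0.07 without that array. Apoe, a lipid carrier secreted with exported cholesterol, was at 9.07, 8.48, 8.18, 8.40 and 7.82 on the exposed arrays, against a lowest of 8.34, a median of 8.40 and a highest of 8.61 on the naive arrays. One end of its exposed values lay above and the other end below every naive array, and the groups differed by -0.04 ± 0.16 (SE). Scd1, the desaturase that makes oleic acid, was at 7.58, 6.69, 6.99, 6.59 and 5.97 on the exposed arrays, against a lowest of 5.99, a median of 6.59 and a highest of 6.80 on the naive arrays. Its exposed values ran past the naive range at both ends.

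The other 4 targets did not pass either. Abcg1, which exports cholesterol to HDL, differed by 0.03 (95% limits -0.25 to 0.31). Mylip, a ubiquitin ligase that removes lipoprotein receptors from the surface, differed by 0.15, and 2 exposed arrays, numbers 1 and 2, lay above all naive arrays. Srebf1, which encodes the lipogenic factor SREBP1, and Lpcat3, which places polyunsaturated chains in phospholipids, each differed by 0.12. For all 4, adjusted p lay between 0.524 and 0.960 (limma).

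Exposed array 1 was the highest of the 5 exposed arrays for 6 of the 7 targets, the exception being Srebf1. It was also the highest for both Nr1h3 and Rxra, and for the mean of the red pulp macrophage markers. The mean of the 7 targets was 8.84 on that array and 8.01 to 8.37 on the other 4 exposed arrays, against 8.13 to 8.25 on naive arrays. The exposed minus naive difference of this mean was 0.12 with all arrays and -0.01 without exposed array 1. Arrays 1 to 3 alone gave 0.28 and arrays 4 to 6 alone -0.11, and 6 of the 7 targets differed in opposite directions within the number sets. The part of macrophage RNA in the target values was not tested beyond 1 covariate fit. With the red pulp marker mean as a covariate, Abca1 differed by -0.17 and Apoe by -0.29 (adjusted p = 0.770 and 0.294 in limma). Abcg1 then differed by -0.10, Scd1 by -0.05, Mylip by 0.01, Lpcat3 by 0.06 and Srebf1 by 0.13. None of the 7 passed in that fit.

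**Figure D2:**
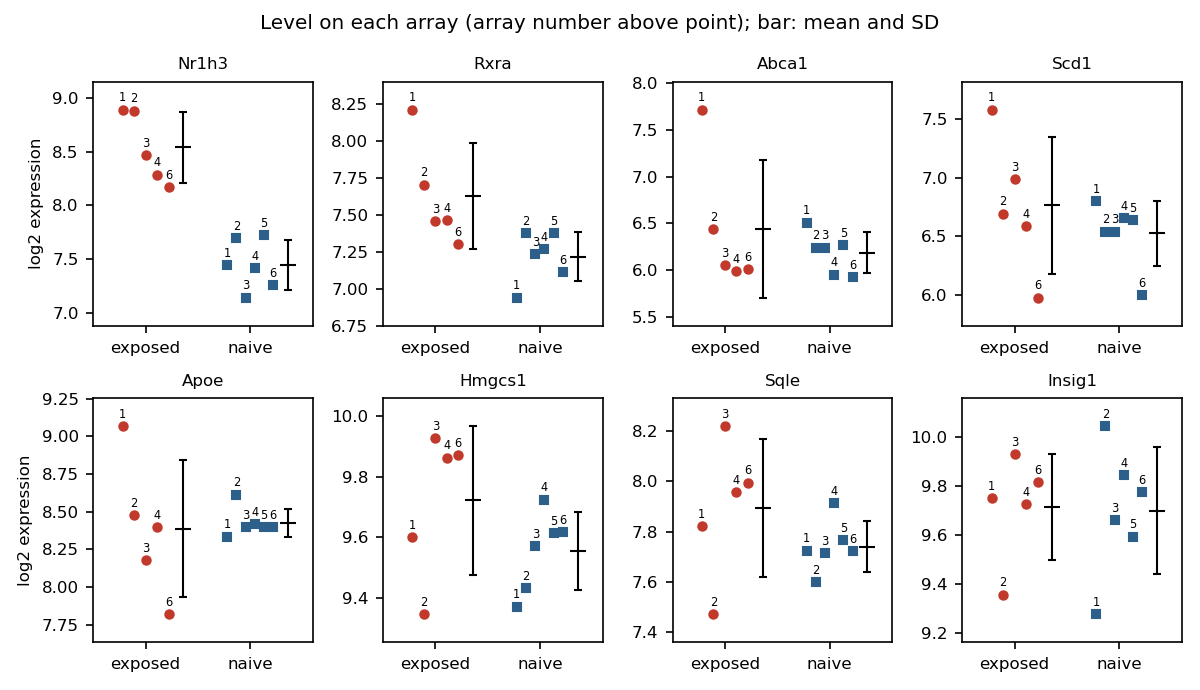
Log2 level (y axis) of 8 genes on each of 5 lymphoma-exposed arrays (red circles, left) and 6 naive arrays (blue squares, right), each point marked with its array number. Black bars are the mean and SD of each group. For Nr1h3 every exposed point lies above every naive point. For Abca1, exposed array 1 at 7.72 is far above the rest.

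**Figure D3:**
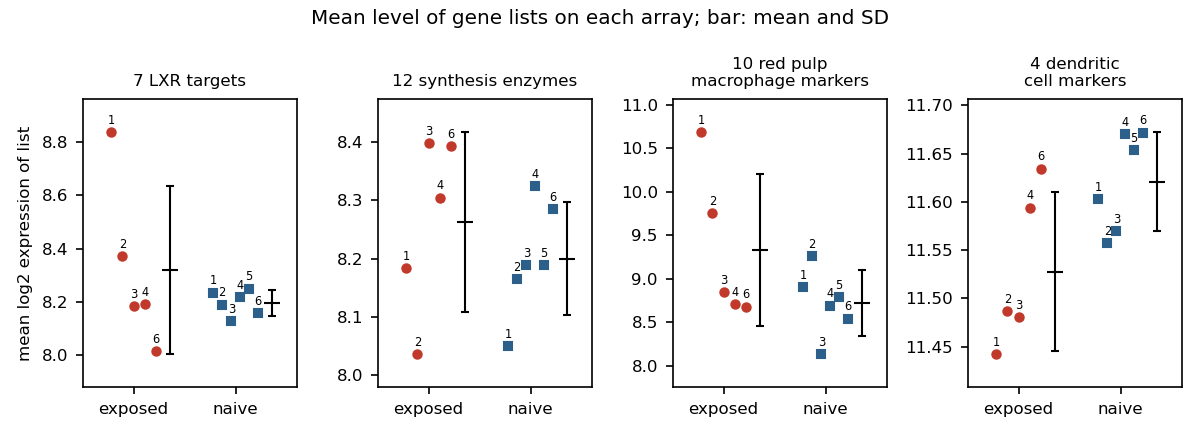
Mean log2 level (y axis) of 4 gene lists on each array, exposed as red circles on the left and naive as blue squares on the right, with array numbers and black bars for the mean and SD. The LXR targets and the red pulp macrophage markers share exposed array 1 as their highest array. The synthesis enzymes do not.

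The enzymes of cholesterol synthesis were counted next, in pathway order. None of the 12 passed (limma), 1 had an unadjusted p under 0.05, and 8 differences were positive and 4 negative, from -0.09 to 0.24. Hmgcs1, which makes HMG-CoA, was measured at 9.60, 9.35, 9.93, 9.86 and 9.87 on the exposed arrays, against a lowest of 9.37, a median of 9.59 and a highest of 9.72 on the naive arrays. Exposed arrays 3, 4 and 6 lay above all naive arrays and exposed array 2 below them, for a difference of 0.17 ± 0.10 (SE; adjusted p = 0.573).

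Mvd, the mevalonate diphosphate decarboxylase, was at 7.88, 7.94, 8.29, 7.92 and 8.06 on the exposed arrays, against a lowest of 7.54, a median of 7.77 and a highest of 7.96 on the naive arrays. It had the largest difference of the enzymes, 0.24 ± 0.09 (SE), with an unadjusted p of 0.0153 and an adjusted p of 0.246 (limma), and 2 exposed arrays lay above all naive arrays. Sqle, the squalene epoxidase, which is rate-limiting after mevalonate, was at 7.82, 7.47, 8.22, 7.96 and 7.995 on the exposed arrays, against a lowest of 7.60, a median of 7.72 and a highest of 7.91 on the naive arrays. Exposed array 2 was again below, and arrays 3, 4 and 6 above, the naive range (difference 0.15, adjusted p = 0.641). Fdps, which makes farnesyl diphosphate, differed by 0.15 and the squalene synthase Fdft1 by 0.13. The mevalonate kinase Mvk differed by -0.01.

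The lanosterol synthase Lss differed by 0.08, with the widest 95% limits of the group, -0.32 to 0.48. Cyp51 and Msmo1, which strip methyl groups from lanosterol, differed by 0.01 and 0.02. Nsdhl, which acts with Msmo1, differed by -0.09, the desaturase Sc5d by -0.03 and Dhcr7, a reductase at the end of the pathway, by -0.07. For all 12 enzymes the 95% limits lay within a 1.5-fold change either way. The largest increase that those limits leave is 1.40-fold, for Lss. The same held for the regulators below, and for 5 of the 7 LXR targets, where Abca1 (up to 1.76-fold) and Scd1 (up to 1.65-fold) were exceptions.

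Srebf2, which encodes SREBP2, differed by -0.05 and Scap by -0.08, with a second Scap probeset at -0.09. Insig1 was measured at 9.75, 9.36, 9.93, 9.73 and 9.82 on the exposed arrays, against a lowest of 9.28, a median of 9.72 and a highest of 10.04 on the naive arrays. The groups overlapped throughout, and the difference was 0.02 ± 0.12 (SE; limma adjusted p = 0.978). Stard4, which carries cholesterol between membranes and is switched on by SREBP2, differed by 0.08, with 3 exposed arrays above all naive arrays (adjusted p = 0.793).

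Many synthesis enzymes shared their highest and lowest arrays. Exposed array 2 was the lowest of the 5 exposed arrays for 9 of the 12 enzymes and for Srebf2, Insig1 and Stard4. Exposed array 3 was the highest for 7. Among naive arrays, number 1 was the lowest for 8 of the 12 and for the same 3 genes. Enzyme means were 8.18, 8.04, 8.40, 8.30 and 8.39 on the exposed arrays, against 8.05 to 8.32 on the naive arrays. This order is unlike that of the LXR targets, which were highest on exposed array 1. It was given no test, since the genes share the same arrays. Between the number sets, 2 of the 25 genes differed with group in the model, against 3.3% of all genes (limma). They were Lss (0.61 higher in arrays 4 to 6, limma adjusted p = 0.00577) and Nsdhl (0.23, limma adjusted p = 0.0349). Both counts are a description, since the split was chosen from earlier results of these data.

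**Figure D4:**
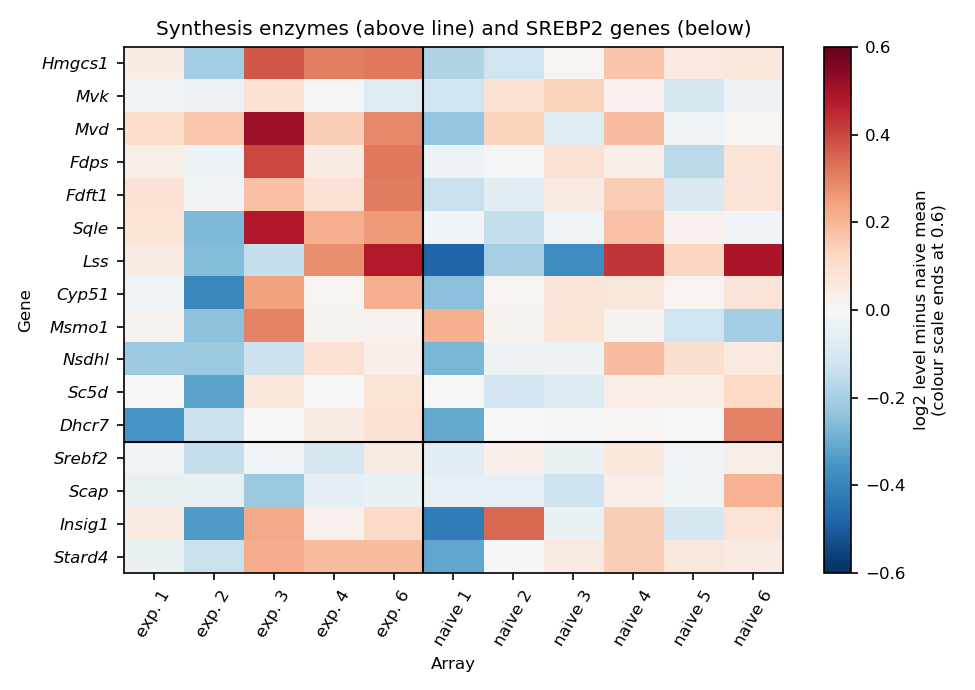
Log2 level minus the gene's naive mean (colour) for 12 synthesis enzymes and 4 SREBP2 genes (rows) on each array (columns), with the 5 exposed arrays left of the line and the 6 naive arrays right of it. Exposed array 2 and naive array 1 are mostly blue, and exposed array 3 mostly red for the enzymes up to Msmo1, apart from Lss.

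Synthesis and export were then set side by side, with the 7 measured LXR targets and without the further targets given below. The mean of the LXR targets minus the mean of the synthesis enzymes differed between exposed and naive cells by 0.06, where the SD between arrays of a group was 0.30. The sign turned with the arrays used, at 0.21 within arrays 1 to 3, -0.19 within arrays 4 to 6, -0.09 without exposed array 1 and -0.01 without exposed array 2. No p is given for a mean over listed genes.

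Promoters of Hmgcs1 and Mvd are shown because they had the largest differences of the enzymes. Capitals mark CCAAT on either strand (as ATTGG on the other) and, in Hmgcs1, the sterol regulatory element TCACNCCAC, the site of SREBP2. They are RefSeq windows on GRCm38.p6, at chr13:119690101-119690400 on the plus strand for Hmgcs1 and chr8:122443373-122443672 on the minus strand for Mvd.
Hmgcs1: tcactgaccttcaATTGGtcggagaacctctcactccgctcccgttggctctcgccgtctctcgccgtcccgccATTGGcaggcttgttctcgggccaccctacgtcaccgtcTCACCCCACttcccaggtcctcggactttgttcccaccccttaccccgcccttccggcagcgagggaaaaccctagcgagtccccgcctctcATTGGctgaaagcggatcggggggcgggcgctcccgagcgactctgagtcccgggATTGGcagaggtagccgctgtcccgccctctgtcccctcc
Mvd: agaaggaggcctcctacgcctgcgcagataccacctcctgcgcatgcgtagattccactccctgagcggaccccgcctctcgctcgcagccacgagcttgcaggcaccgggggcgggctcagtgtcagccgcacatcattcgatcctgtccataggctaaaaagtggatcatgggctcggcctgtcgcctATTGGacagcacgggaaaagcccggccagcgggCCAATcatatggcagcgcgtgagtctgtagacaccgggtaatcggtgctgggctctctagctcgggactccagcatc
Hmgcs1 held the sterol element as TCACCCCAC at position -137, and it was the only one of the 22 listed genes with a window to hold those letters, against 1.44% of all genes. CCAAT stood in the windows of 10 of 11 listed synthesis enzymes and 3 of 5 LXR targets, against 41.1% of all genes. GGGCGG stood in 11 of 11 enzymes and 4 of 5 targets, against 38.2% of all genes. The windows cover only the start of a gene, and nothing follows about a factor from letters that are missing there.

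Further genes of the pathway gave 1 call among 48 measured of 57 listed, against 1.42% of all genes. They came from lists made by function, with earlier results of these data known, so the count is a description. Lipoprotein lipase, Lpl, an LXR target in macrophages, was measured at 7.59, 6.99, 6.69, 6.87 and 6.26 on the exposed arrays, against a lowest of 5.44, a median of 5.84 and a highest of 6.22 on the naive arrays. It rose by 1.04 ± 0.20 (SE; limma adjusted p = 0.0239), with all 5 exposed arrays above all naive ones. Dropping naive array 1, 3 or 6 or exposed array 2 ended the call, with adjusted p = 0.0548, 0.0630, 0.0577 and 0.0734. Arrays 1 to 3 alone gave 1.24 and arrays 4 to 6 alone 0.74, neither past the threshold (adjusted p = 0.120 and 0.528 in limma). The call was also lost with the replicate characteristic as a block (0.97, adjusted p = 0.0621) and with the cell division mean as a covariate (1.82, adjusted p = 0.103), so that Lpl passed in 17 of 25 settings. The other Lpl probeset, a dim one, gave 0.22.

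Of the 11 measured further LXR targets, 10 had positive differences, with a median of 0.18. The mean of the 11 differed by 0.44, and by 0.31 without exposed array 1. It lay above all naive arrays on 4 exposed arrays. An unadjusted p under 0.05 (limma) was seen for 5, namely Lpl, Cd5l, Mertk, Pltp and Apoc2, and only Lpl passed. Pltp differed by 0.35 and Apoc2 by 0.44 (limma adjusted p = 0.184 and 0.253). Some of the 11 were high on the arrays with macrophage markers. Cd5l, a scavenger protein of macrophages, was at 10.03, 9.22, 7.55, 7.48 and 7.15 on the exposed arrays, against a lowest of 5.70, a median of 6.36 and a highest of 7.38 on the naive arrays. Its difference of 1.89 ± 0.47 (SE) missed the threshold (limma adjusted p = 0.0693), and a block for number set made it pass (1.80, adjusted p = 0.0400). Cd5l, Mertk, Pltp, Apoc2, Cyp27a1, Ch25h, Rxrb, Acaca and Fasn were chosen for naming after their values were seen. The engulfment receptor Mertk reached 9.63 and 8.33 on exposed arrays 1 and 2 and 7.25 to 7.43 on the other exposed arrays, against 6.85 to 7.64 on naive arrays (difference 0.80, adjusted p = 0.380).

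Of 4 esterification and oxysterol genes 0 passed (limma), 3 with an unadjusted p under 0.05. Cyp7b1, which breaks down oxysterols, had the largest difference, 0.42 ± 0.12 (SE; adjusted p = 0.111). Cyp27a1, which makes a side-chain oxysterol that activates LXR, was at 10.14, 10.03, 9.98, 10.46 and 10.42 on the exposed arrays, against a lowest of 10.43, a median of 10.59 and a highest of 10.71 on the naive arrays. Of the exposed arrays 4 lay below all naive arrays, and the difference of -0.39 ± 0.09 (SE) narrowly missed the threshold (adjusted p = 0.0542). A block for number set made it pass (-0.36, adjusted p = 0.0122), as did 7 of the other 24 settings tried. Ch25h, which makes 25-hydroxycholesterol, differed by 0.36 (limma adjusted p = 0.278), with 4 exposed arrays above all naive arrays. It lay below the mark for dim genes, and its other probeset gave 0.12.

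Elsewhere 0 genes passed (limma). That covers 7 further synthesis enzymes (0 at an unadjusted p under 0.05; largest Hsd17b7, 0.12), 10 uptake and transport genes (1; Lrp1, 0.18), 4 SREBP processing genes (0; Insig2, 0.10) and 4 LXR partners and co-regulators (1; the corepressor Nrip1, -0.16). Of 8 fatty acid synthesis genes driven by SREBP1, 7 differences were positive and 3 had an unadjusted p under 0.05. The largest was that of the desaturase Fads2, 0.30 (adjusted p = 0.121), and Acaca and Fasn, which build the chain, each differed by 0.05.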

How the data were processed

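Expression was measured on 11 one-colour Affymetrix arrays, 5 lymphoma-exposed and 6 naive, grouped by their titles. The authors deposited log2 values per probeset made with RMA, per the submitters' processing notes, which corrects background, normalises between arrays and summarises probes; the version and build are not given in the sources used here. Of 41801 probesets, 7329 were blank on every array. The given probe table named 1 gene for 23521 of the rest, several for 1814 and none for 9137. Each gene kept its probeset with the highest mean over all arrays, which left 22180 genes, none removed as dim. Array medians lay between 5.53 and 5.61, and the number of arrays limits the precision.

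Differences are exposed minus naive, from limma 3.58.1 (lmFit, eBayes with trend) in R 4.3.3, with Benjamini-Hochberg adjustment over all genes, tested on simulated data first. SE and 95% limits are limma's, SD is between arrays. The 29 listed genes and the other lists were chosen with earlier results of these data known. All measured listed genes are named. Of other lists, genes that passed are named, or the largest difference where none did. Markers are given as means, counts and those that passed, with further members named in some lists. Promoters were scanned on both strands. Alternatives were no trend, median centring, quantile normalisation, a common 75th percentile, a dim filter, the mean of probesets, number sets, replicate blocks, marker means as covariates, and each array left out. 1 listed marker set, erythroid genes, was not analysed here.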

Additional observations from a re-analysis of the deposited data

Results flagged for a closer look

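Of 60 groups of values examined, 8 held a highest or lowest array far from the rest by Dixon's criterion, which flags about 1 group in 20 by chance. In exposed cells these were Abca1 at 7.72 on array 1 (next 6.44), Sc5d at 8.70 on array 2 (next 9.02) and Scap at 8.99 on array 3 (next 9.15). In naive cells they were Apoe at 8.61 on array 2 (next 8.42), Scd1 at 5.99 on array 6 (next 6.54), Cyp51 at 8.14 on array 1 (next 8.41), Stard4 at 6.86 on array 1 (next 7.16) and Cyp7b1 at 5.92 on array 5 (next 6.09).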

How the results depend on the processing

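The count of 1 listed gene past the threshold, Nr1h3, held in 22 of 25 settings, including each fit with 1 array left out (lowest and highest count 1). It was 0 in arrays 1 to 3 alone, 0 in arrays 4 to 6 alone and 0 with the cell division mean as a covariate. The number-set fits hold fewer arrays, and 11 and 5 genes passed in them over all genes. For the covariate the cause was not tested. The cell division mean lay above every naive array on all 5 exposed arrays, so that fit cannot separate it from group. In the 4 rescalings and filters of values as deposited (median centring, quantile normalisation, a common 75th percentile, dim genes removed) Nr1h3 differed by 1.05 to 1.09. Of the 24 genes that did not pass, 15 changed sign in at least 1 setting, and none passed in any. The target minus synthesis difference lay between -0.09 and 0.17 with 1 array left out, and the interaction passed for 0 of the 25 genes in every setting where it was fitted. Rescaling moved the median of all genes to at most -0.03.

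The replicate numbers were not taken to pair arrays. After removing group means, same-numbered arrays correlated between 0.0880 and 0.231, and the own-number naive array was the best match for 2 of 5 exposed arrays. With the replicate number as a block the count was 1 again, with Nr1h3 at 1.15 by the title's number (adjusted p = 0.00189 in limma) and 1.05 by the replicate characteristic (adjusted p = 0.0223). Over all genes, 341 and 182 then passed, against 316. The count over all genes lay between 104 and 395 with 1 array left out, with 104 without exposed array 2, 205 without exposed array 3, and 165, 177, 170, 155 and 155 without naive arrays 1, 2, 3, 5 and 6. It was 617 with the number set as a block. Cd5l passed in 6 of 25 settings: without dim genes, with the number set or either replicate number as a block, with the red pulp marker covariate (1.02, adjusted p = 0.00224) and without exposed array 6.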
